A study of Mus musculus with 32 samples.

Results

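Solute carriers are membrane proteins that move sugars, amino acids, nucleosides, metals, other ions and metabolites across the plasma membrane and the membranes of organelles, and their genes carry symbols of Slc followed by a family number. Peaks of N6-methyladenosine (m6A), a methyl mark on adenosines of RNA, were examined here in these genes in mouse embryonic stem cells. A peak was a member if its summit lay in the mm10 body of a single gene, protein-coding and with an Slc symbol. This gave 5362 of 496760 peaks, and they lay in 232 of the 375 Slc genes of the gene table. Of the genes with a peak, 4 share the symbol form but are not carriers by name: Slc4a1ap encodes an adaptor protein of the Slc4a1 product, Slc7a6os is named for the strand opposite to Slc7a6, and Slc9a3r1 and Slc9a3r2 encode scaffold proteins.

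The CKO cells carried a knockout of Mettl3, the catalytic subunit of the m6A methyltransferase, or of Mettl14, its RNA-binding partner subunit, and each line had its own Control cells. All were C57BL/6 embryonic stem cells kept with LIF (1000 U/ml), CHIR99021 (3 µM), which inhibits the kinase GSK3, and PD0325901 (1 µM), which inhibits the kinase MEK. The labels do not say how CKO cells were made or how complete the deletion was. RNA bound to chromatin (caRNA, mostly nascent transcripts with introns) and polyadenylated mRNA were enriched with an m6A antibody, which gave 16 peak lists in 8 groups of 2 replicates, and 16 input samples were not used here. The labels name no separate cultures for the replicates, so p-values measure only the spread between these libraries.

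m6A sits mostly in a short consensus with the core GGAC, and in mature messages it gathers around the stop codon and in the last exon. It is placed on nascent RNA, is read by YTH-domain proteins and is widely tied to faster decay of the messages that carry it, also in embryonic stem cells. In bulk RNA, a peak that is absent from a list can come from less methylation, from less of the RNA or from lower depth, and fewer cells with the RNA and less RNA per cell cannot be told apart. The depth behind the lists is unknown.

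The series as a whole set the frame for these counts. The caRNA lists held 37955 to 45241 peaks and the mRNA lists 16537 to 23380, the lowest being those of the Mettl14 Control. Of 10 stem cell markers, caRNA libraries had a peak in 8 to 9 (CKO) and 8 to 9 (Control), and mRNA libraries in 6 to 7 (CKO) and 6 to 8 (Control). Of 7 fibroblast markers, caRNA libraries had a peak in 4 to 7 (CKO) and 2 to 4 (Control), and mRNA libraries in 4 to 5 (CKO) and 1 to 5 (Control). By line, caRNA had 7 and 7 in the Mettl3 CKO, against 2 and 3 in the Control, and 4 and 5 in the Mettl14 CKO, against 4 and 4. In mRNA it was 5 and 5 in the Mettl3 CKO, against 3 and 5, and 4 and 4 in the Mettl14 CKO, against 1 and 1. The part of these marker peaks in the results below was not tested. The Mettl14 gene had no peak in the caRNA of the Mettl14 CKO libraries, against folds of 3.82 and 2.82 in the Control libraries, while the Mettl3 gene kept a peak in the caRNA of all Mettl3 libraries (4.26 and 4.64 in CKO, 4.16 and 6.82 in Control). In mRNA, the Mettl14 gene had a peak in 1 Mettl14 CKO library (2.30) and in both Control libraries (1.69 and 3.07), and the Mettl3 gene had one in 1 Mettl3 CKO library (3.40) and in neither Control library. A peak list does not measure how much of a gene's RNA was left, so these peaks do not check the deletion.

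Sequences could be read for the starts of Slc genes, where some of the peaks lay. In 40 windows of 37 Slc genes, a peak on the gene's strand covered part of the first 50 transcribed bases in at least 1 library. Each window holds 250 bases before and 50 bases after the start, from RefSeq on GRCm38.p6. In 24 of the windows the peak was found in caRNA alone and in 2, those of Slc35g1 and Slc6a17, in mRNA alone. Several of these windows had the peak in a single library. No such count was made over protein-coding windows, so these counts are not a result about Slc genes. Over all protein-coding genes, the first 10% of the gene body also held a larger mean share of summits in caRNA (15.1%) than in mRNA (9.55%). The 5 below come from the 10 windows with a peak in at least 8 libraries, and are shown because their peaks recur across replicates: in every list, in 14 lists, or in all caRNA lists alone. They are written along the gene strand, with the motif GGAC in capitals. The last 50 bases of each are the transcribed ones, and of these 5 windows only that of Slc25a28 has a GGAC there. All other capitals lie before the start, outside the transcript that begins there.
Slc39a9: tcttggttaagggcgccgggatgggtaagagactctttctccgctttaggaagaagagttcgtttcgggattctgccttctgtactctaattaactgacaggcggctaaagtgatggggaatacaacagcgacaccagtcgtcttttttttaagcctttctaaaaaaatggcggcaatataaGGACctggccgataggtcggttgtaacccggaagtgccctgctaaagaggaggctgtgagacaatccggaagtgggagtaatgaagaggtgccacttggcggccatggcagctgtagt
Slc25a28: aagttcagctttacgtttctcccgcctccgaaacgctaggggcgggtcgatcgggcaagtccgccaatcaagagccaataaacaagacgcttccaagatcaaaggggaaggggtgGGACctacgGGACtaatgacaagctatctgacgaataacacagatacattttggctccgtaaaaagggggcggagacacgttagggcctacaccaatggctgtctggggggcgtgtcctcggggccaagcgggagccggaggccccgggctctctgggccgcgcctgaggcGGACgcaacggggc
Slc3a2: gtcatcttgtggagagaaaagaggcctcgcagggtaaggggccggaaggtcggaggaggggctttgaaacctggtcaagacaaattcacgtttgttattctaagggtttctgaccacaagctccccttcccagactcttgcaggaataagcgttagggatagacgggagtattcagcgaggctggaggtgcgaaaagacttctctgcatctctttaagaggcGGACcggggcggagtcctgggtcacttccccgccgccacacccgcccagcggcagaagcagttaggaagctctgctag
Slc7a8: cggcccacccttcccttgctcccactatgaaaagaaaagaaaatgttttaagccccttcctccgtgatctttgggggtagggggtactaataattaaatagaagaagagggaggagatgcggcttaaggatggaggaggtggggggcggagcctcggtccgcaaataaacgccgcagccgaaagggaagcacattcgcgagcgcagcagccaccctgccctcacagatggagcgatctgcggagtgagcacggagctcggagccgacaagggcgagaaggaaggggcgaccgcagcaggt
Slc25a17: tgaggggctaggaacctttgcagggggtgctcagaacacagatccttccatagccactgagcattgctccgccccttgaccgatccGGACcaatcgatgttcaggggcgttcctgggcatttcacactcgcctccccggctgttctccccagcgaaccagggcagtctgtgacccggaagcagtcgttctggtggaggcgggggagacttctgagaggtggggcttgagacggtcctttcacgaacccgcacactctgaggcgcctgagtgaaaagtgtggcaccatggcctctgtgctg

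Slc39a9, a zinc transporter of the Golgi, has its window at chr12:80643965-80644264 on the plus strand and a peak over its first bases in 16 of 16 lists. Its folds were 5.37 and 5.28 in caRNA of the Mettl3 CKO, against 6.00 and 8.10 in the Control, and 9.77 and 16.8 in caRNA of the Mettl14 CKO, against 18.4 and 15.9 in the Control. In mRNA they were lower, at 4.34 and 3.55 in the Mettl3 CKO, against 3.60 and 3.40 in the Control, and at 4.40 and 3.96 in the Mettl14 CKO, against 3.56 and 3.33 in the Control. Fold here is the authors' enrichment of a peak over their background, and folds from separate lists are given together without a test.

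Slc25a28, a mitochondrial iron importer, has its window at chr19:43674832-43675131 on the minus strand and had a peak there in 14 lists. Its window holds 3 GGAC, 1 of them in the transcribed bases. Slc3a2, the heavy chain that carries several amino acid exchangers to the cell surface, has its window at chr19:8713848-8714147 on the minus strand. It had a peak there in 14 lists and lacked it only in mRNA of the Mettl14 Control, against folds of 2.54 and 2.70 in the Mettl14 CKO. Slc7a8, a neutral amino acid exchanger, has its window at chr14:54781837-54782136 on the minus strand, with no GGAC. It lacked the peak only in caRNA of the Mettl14 Control, against folds of 6.08 and 4.06 in the CKO. Slc25a17, a peroxisomal cofactor carrier, has its window at chr15:81360716-81361015 on the minus strand and had a peak in all 8 caRNA libraries and in no mRNA library. Its folds were 11.6 and 7.57 in the Mettl3 CKO, against 4.73 and 6.35 in the Control, and 7.68 and 7.99 in the Mettl14 CKO, against 7.40 and 9.21 in the Control.

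Over all windows, GGAC stood in the first 50 transcribed bases, on the gene strand, in 27.5% of the 40 Slc windows with a peak and in 22% of the 2654 protein-coding windows with such a peak. Without regard to peaks it was in 20.9% of 368 Slc windows and in 20% of 21263 windows of protein-coding genes. Searched over the 300 bases on both strands, it was in 90% of the Slc windows with a peak and 92.8% of the protein-coding windows with one, and in 94.3% and 89.5% without regard to peaks. The longer GGACT, which contains GGAC, was in 52.5% and 48.4% of the windows with a peak and in 48.9% and 46.6% without regard to peaks. A match is a description of these letters, and peaks away from the start could not be searched.

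Peaks reached the Slc genes as a whole about as often as other protein-coding genes. A peak was found in 61.9% of the 375 Slc genes, and in 58.7% of 21900 protein-coding genes. The 143 Slc genes without a member peak include 9 whose only summits were shared with another gene, and their median gene length was 35220 bp, against 25540 bp for those with a peak. The marked genes divided into 78 with a peak in all 16 lists, 13 with a peak in a single list and the rest between. All 16 lists marked 33.6% of the marked Slc genes, and 38.9% of all marked protein-coding genes. For related genes that the symbol rule leaves out, a peak was found in 27 of 50 ABC transporters, 70 of 138 ion channel genes, 7 of 14 Slco genes and 14 of 21 Mfsd genes.

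**Figure D1:**
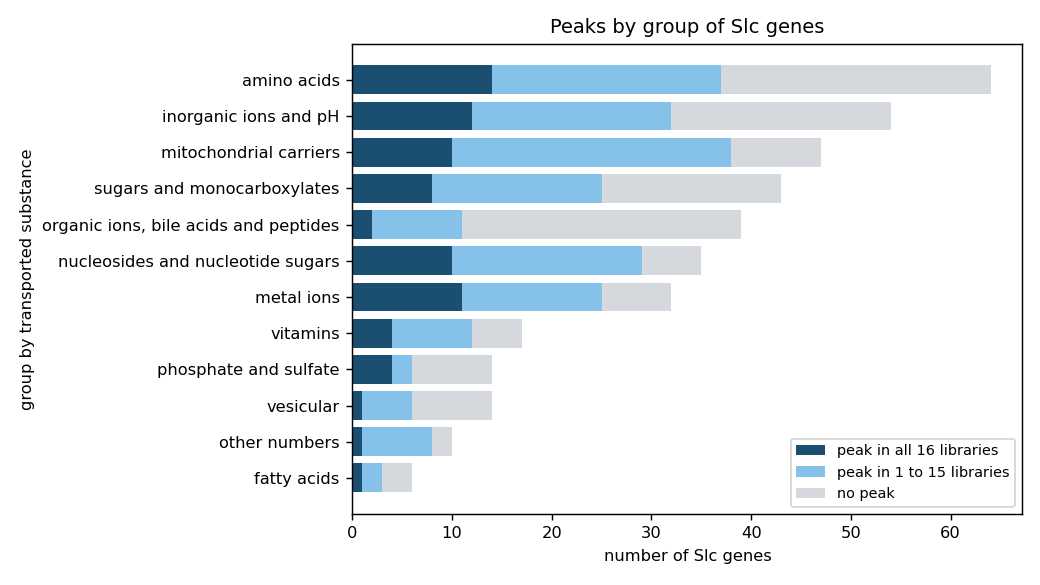
Number of Slc genes (horizontal axis) by the substance their family carries (vertical axis), split into genes with a peak in all 16 libraries, in 1 to 15 libraries and in none. Mitochondrial carriers and nucleotide sugar carriers were mostly marked, at 38 of 47 and 29 of 35, while organic ion, bile acid and peptide carriers were mostly unmarked, at 11 of 39.

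The families differed in how many members carried a peak. The shares were highest for carriers of nucleosides and nucleotide sugars (29 of 35) and for the mitochondrial carriers (38 of 47), the Slc25 family that moves metabolites across the inner mitochondrial membrane. Metal ion carriers had a peak in 25 of 32 genes, and the families placed in no substance group in 8 of 10. Amino acid carriers had a peak in 37 of 64 and sugar and monocarboxylate carriers in 25 of 43. Carriers of organic ions, bile acids and peptides, many of which are known from liver, kidney and gut, had a peak in 11 of 39 genes, 2 of them in all 16 lists.

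The 22 transporters listed for general metabolism or stem cells all had a peak, and 16 had one in every list. They include Slc2a1 and Slc2a3, which import glucose, Slc16a1 and Slc16a3, which carry lactate, and Slc1a5, Slc7a5 and Slc38a2, which carry amino acids. Slc2a1 had a peak on its own strand, about 99.0% of the way along the gene, in all 16 lists, at chr4:119136178-119137313 in caRNA of the Mettl3 line. Its folds there were 5.90 and 3.80 in caRNA of the Mettl3 CKO, against 6.20 and 5.25 in the Control, and 8.58 and 8.68 in caRNA of the Mettl14 CKO, against 8.99 and 8.83 in the Control. In mRNA, they were 1.97 and 2.23 in the Mettl3 CKO, against 3.25 and 3.45 in the Control, and 2.57 and 2.95 in the Mettl14 CKO, against 1.72 and 2.12 in the Control. CKO lay below Control in mRNA of the Mettl3 line and in caRNA of the Mettl14 line and above it in mRNA of the Mettl14 line, and the groups overlapped in caRNA of the Mettl3 line. Stronger peaks on the opposite strand also lay within the gene, up to a fold of 12.5 in mRNA of the Mettl3 CKO, and cannot be assigned to Slc2a1 RNA. Of the same list, Slc25a1, the mitochondrial citrate carrier, had a peak in caRNA alone, in both lists of the Mettl3 CKO (6.08 and 3.40) and of its Control (3.37 and 4.85), and in 1 list of the Mettl14 Control (3.26). The list was written with earlier results of these data known.

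Each caRNA library held more Slc peaks than each mRNA library. In caRNA, the Mettl3 CKO libraries had 434 and 415 Slc peaks, against 431 and 464 in the Control, and the Mettl14 CKO libraries had 409 and 417, against 459 and 436 in the Control. In mRNA, the Mettl3 CKO libraries had 246 and 258, against 227 and 230 in the Control, and the Mettl14 CKO libraries had 269 and 267, against 196 and 204 in the Control. In mRNA of both lines, both CKO libraries lay above both Control libraries, and in caRNA of the Mettl14 line both lay below.

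**Figure D2:**
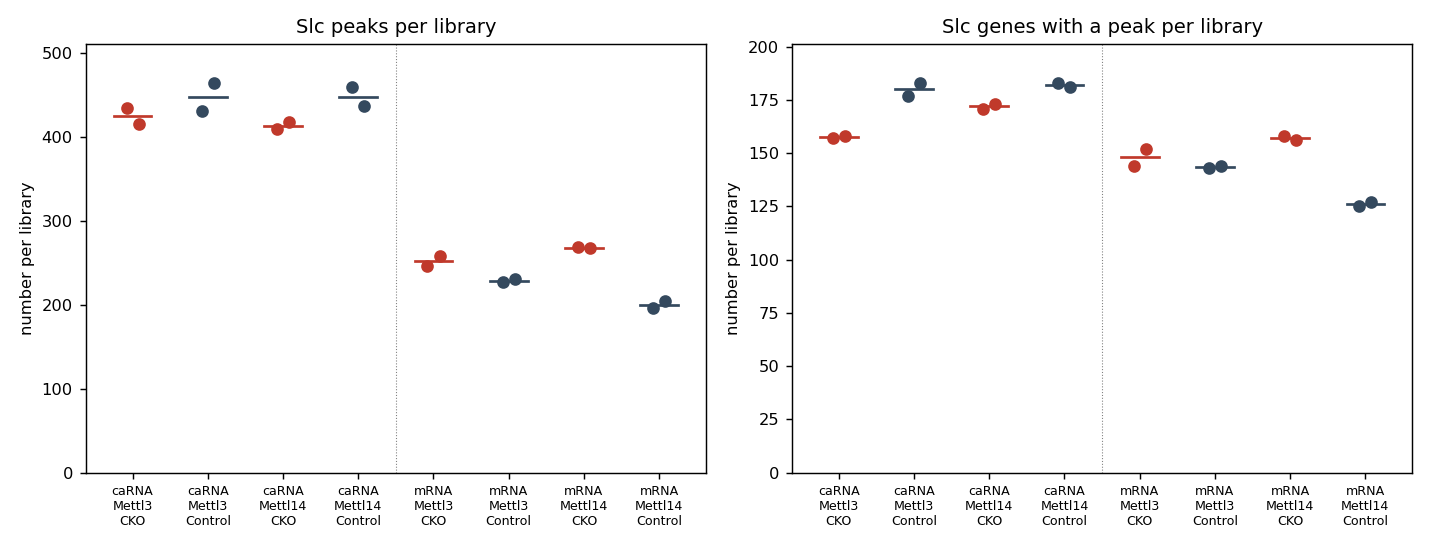
Slc peaks (left) and Slc genes with a peak (right) in each of the 16 libraries, with the number per library on the vertical axis. Points are libraries, bars are group means, CKO is red and Control is dark blue. In caRNA, 157 to 173 Slc genes had a peak in CKO libraries, against 177 to 183 in Control libraries, while in mRNA it was 144 to 158 in CKO, against 125 to 144 in Control.

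The number of marked Slc genes moved in opposite directions in the RNA types. In caRNA, 157 and 158 Slc genes had a peak in the Mettl3 CKO, against 177 and 183 in the Control, and 171 and 173 had one in the Mettl14 CKO, against 183 and 181 in the Control. In mRNA, 144 and 152 had a peak in the Mettl3 CKO, against 143 and 144 in the Control, and 158 and 156 in the Mettl14 CKO, against 125 and 127 in the Control. Over all libraries the mean was 159 ± 9.47 in CKO and 158 ± 25.7 in Control (SD, n = 8 each), a difference of 0.750 that did not pass (exact two-sided permutation test within the 4 comparisons, p = 0.877, Benjamini-Hochberg adjusted over 4 tests p = 0.877). The difference between CKO and Control averaged -16.2 genes in caRNA and 17.8 genes in mRNA, and these differed by -34.0 genes (exact permutation test chosen after the data were seen, p = 0.00309, adjusted over 11 such tests p = 0.00424). With the 10000 strongest peaks of each list this difference was -13.8 genes and did not pass (exact permutation p = 0.0602), and the difference over all libraries turned to -4.38 genes. The number of all protein-coding genes with a peak moved in the same directions by group means, though its groups overlapped in the Mettl3 line. In caRNA it was 10276 and 9949 in the Mettl3 CKO, against 10099 and 10348 in the Control, and 9488 and 9572 in the Mettl14 CKO, against 9928 and 9770 in the Control. In mRNA it was 8526 and 8696 in the Mettl3 CKO, against 8374 and 8540 in the Control, and 8590 and 8483 in the Mettl14 CKO, against 6945 and 7251 in the Control. Slc genes were 1.53% and 1.59% of these genes in caRNA of the Mettl3 CKO, against 1.75% and 1.77% in the Control, and 1.80% and 1.81% in caRNA of the Mettl14 CKO, against 1.84% and 1.85% in the Control. In mRNA they were 1.69% and 1.75% in the Mettl3 CKO, against 1.71% and 1.69% in the Control, where the groups overlapped, and 1.84% and 1.84% in the Mettl14 CKO, against 1.80% and 1.75% in the Control. This share was not tested. Without the second mRNA Mettl3 CKO library the overall difference in the number of Slc genes was -0.250, and without the first caRNA Mettl3 Control library it was 0.

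The share of protein-coding peaks that lay in Slc genes, which also depends on the other protein-coding peaks of each list, gave the same contrast. In caRNA it was 1.16% and 1.21% in the Mettl3 CKO, against 1.38% and 1.41% in the Control, and 1.37% and 1.36% in the Mettl14 CKO, against 1.43% and 1.39% in the Control. In mRNA it was 1.29% and 1.32% in the Mettl3 CKO, against 1.24% and 1.22% in the Control, and 1.46% and 1.48% in the Mettl14 CKO, against 1.43% and 1.39% in the Control. In each of the 4 comparisons the libraries of CKO and Control did not overlap, with CKO lower in caRNA and higher in mRNA. CKO minus Control was -0.209 points in caRNA of the Mettl3 line and -0.0479 in caRNA of the Mettl14 line. In caRNA of the Mettl3 line, protein-coding peaks numbered 37441 and 34247 in CKO, against 31345 and 32836 in Control. Slc peaks there overlapped, at 434 and 415 in CKO, against 431 and 464. The lower share there thus goes with more protein-coding peaks and not with clearly fewer Slc peaks. Pooled over RNA types the shares were 1.33% ± 0.111 in CKO and 1.36% ± 0.0835 in Control (SD, n = 8 each, exact permutation p = 0.383, adjusted p = 0.765). The CKO minus Control difference averaged -0.128 percentage points in caRNA and 0.0690 in mRNA, and these differed by -0.197 points (exact permutation p = 0.00154, the smallest possible here, adjusted over 11 tests p = 0.00283). Between RNA types the share was 1.34% ± 0.0978 in caRNA and 1.35% ± 0.101 in mRNA (SD, n = 8 each, exact permutation p = 0.628, adjusted p = 0.837), but with the 10000 strongest peaks caRNA was lower by 0.124 points (exact permutation p = 0.0401).

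Slc peaks of caRNA lay much less often near the gene end than those of mRNA. In caRNA, 22.8% ± 4.13 of Slc summits lay in the last 10% of the gene body, and in mRNA 40.7% ± 6.69 (SD, n = 8 each), a difference of -18.0 points with caRNA lower in 4 of 4 strata of line and genotype (exact two-sided permutation test, p = 0.00154, adjusted p = 0.00617). The first 10% held 19.5% ± 0.971 in caRNA and 11.3% ± 1.61 in mRNA (difference 8.20 points, n = 8 each, exact permutation p = 0.00154, adjusted over 11 tests p = 0.00283). Introns are still present in much of caRNA, and gene bodies were used whole, so each 10% is of genomic and not of transcript length.

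**Figure D3:**
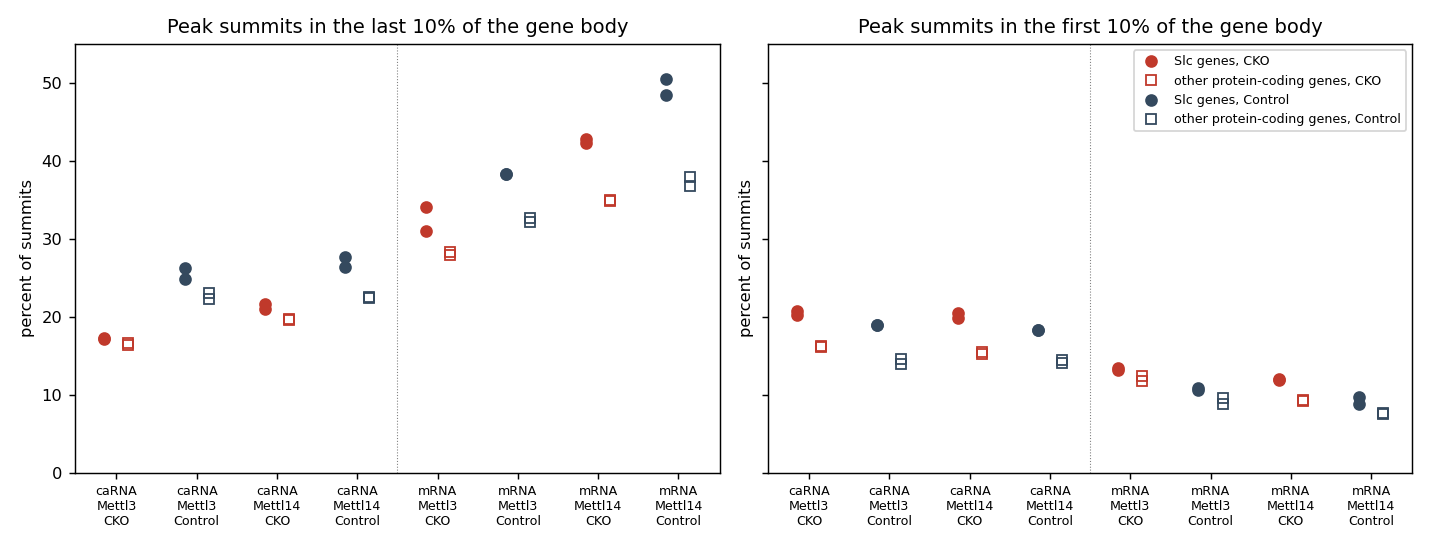
Percent of peak summits in the last 10% (left) and first 10% (right) of the gene body, per library. Filled circles are Slc genes and open squares other protein-coding genes, red for CKO and dark blue for Control. Slc genes lie above the other genes in 16 of 16 libraries in both panels, and in the last 10% the CKO circles lie below their Control circles in each pair of groups.

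Within each comparison the last 10% held a smaller part of the Slc peaks in CKO. In caRNA it held 17.1% and 17.3% in the Mettl3 CKO, against 26.2% and 24.8% in the Control, and 21.0% and 21.6% in the Mettl14 CKO, against 27.7% and 26.4% in the Control. In mRNA it held 34.1% and 31% in the Mettl3 CKO, against 38.3% and 38.3% in the Control, and 42.8% and 42.3% in the Mettl14 CKO, against 50.5% and 48.5% in the Control. No CKO library overlapped its Control libraries. The mean difference was -6.68 points (28.4% ± 10.6 in CKO, 35.1% ± 10.4 in Control, SD, n = 8 each, exact permutation p = 0.00154, adjusted over 11 tests p = 0.00283).

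The excess of Slc genes over other protein-coding genes near the gene end was smaller in CKO. The share of Slc summits in the last 10% exceeded that of other protein-coding genes by 3.62 points ± 2.99 in CKO and by 6.36 points ± 3.80 in Control (SD, n = 8 each). This excess fell by 2.74 points in CKO, in 4 of 4 comparisons by group means (exact permutation p = 0.00309, adjusted over 11 tests p = 0.00424). In mRNA of the Mettl3 line the libraries overlapped, with an excess of 5.89 and 3.13 points in CKO, against 5.67 and 6.11 in Control. The excess was also smaller in caRNA (2.43 points) than in mRNA (7.55 points), by 5.11 points (exact permutation p = 0.00154, adjusted p = 0.00283). In the first 10% the Slc share was 16.5% in CKO and 14.3% in Control, higher by 2.16 points in 4 of 4 comparisons (exact permutation p = 0.00154, adjusted p = 0.00283), while its excess over other genes differed by 0.316 points between CKO and Control, which did not pass (exact permutation p = 0.264, adjusted p = 0.290). A high share near the gene end was also seen in some related genes. Over the mRNA libraries the last 10% held 31% to 50.5% of Slc summits, against 27.9% to 38.1% in all protein-coding genes. It held 37.5% to 48.6% of summits in ion channel genes and 37.5% to 60% of those in Mfsd genes. In ABC transporter genes it held 27.6% to 44%, below all protein-coding genes in some libraries and above them in others. The Slco share was below that of all protein-coding genes in the first Mettl14 Control library and above it in the others. Ion channel, Mfsd and Slco genes had as few as 32, 7 and 4 peaks in an mRNA library. The difference of these related groups from Slc genes was not tested.

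Calls of single regions and genes then showed where Slc peaks were absent or new. A region (overlapping peaks of the 4 lists of a comparison, by strand) or a gene was called lost with a peak in both Control and no CKO libraries, gained with the reverse, and retained with a peak in all 4. No test can be had within a comparison, where the smallest exact p is 0.333, so the counts stand beside those of all protein-coding genes. Counts with a library left out rise by construction for all genes, since its partner alone decides. They are given below without a protein-coding share and are not a result about Slc genes. In all, 72 Slc genes were lost or gained in at least 1 comparison and 78 were retained in all 4. The 78 were 33.6% of the marked Slc genes, and 38.9% of marked protein-coding genes had a peak in every list. A like share over protein-coding genes was not computed for the 72, so that count is not a result about Slc genes. Of the 89 gene calls of lost or gained, 5 remained with the 10000 strongest peaks of each list, 84 with a −log10 q of at least 5, 77 with peaks on the gene's strand alone and 82 when summits shared by several genes counted.

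**Figure D4:**
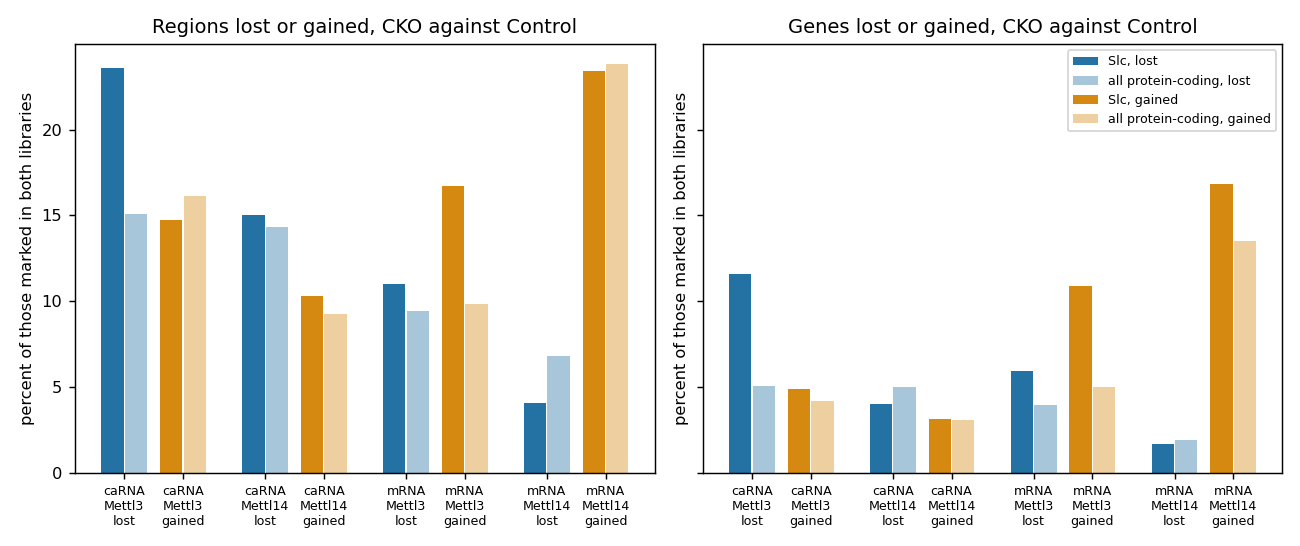
Percent of regions (left) and genes (right) lost in CKO, of those marked in both Control libraries, and gained, of those marked in both CKO libraries. Dark bars are Slc genes and pale bars all protein-coding genes. The tallest dark bars of the lost kind are those of caRNA in the Mettl3 line, at 23.6% of Slc regions and 11.6% of Slc genes.

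In caRNA of the Mettl3 CKO, 87 of 368 Slc regions were lost (23.6%), and 15.1% of protein-coding regions. Of 339 Slc regions marked in both CKO libraries 50 were gained (14.7%), and 16.1% of protein-coding regions. At the level of genes, 20 of 172 Slc genes were lost (11.6%), and 5.06% of protein-coding genes, while 7 of 144 were gained (4.86%), and 4.17% of protein-coding genes. Of the genes marked in both Control libraries 133 were retained (77.3%), and 89.9% of protein-coding genes, and of the regions 244 (66.3%), and 75.1%. The retained Slc genes had higher best folds in the Control libraries, with a median of 7.95, than the 20 lost ones, with a median of 4.97. A gene with stronger or more peaks is more easily listed in all 4 libraries, so the rule itself favours this. Without the first Control library 134 regions were lost, and the 50 gained regions became 78 without the second Control, 90 without the first CKO and 101 without the second CKO library, while the 7 gained genes became 11 without the first CKO library. Such rises are built in when a library is left out.

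The losses were densest near gene ends. In the last 10%, 38 of 98 Slc regions were lost (38.8%), and 23.7% of protein-coding regions there. In the middle it was 40 of 199 (20.1%), and 13.5% of protein-coding regions, and in the first 10% 9 of 71 (12.7%), and 7.77%. The 38 regions lay in 36 genes, and 27 of those genes kept other peaks and were retained, while 6 were lost. In caRNA of the Mettl14 line, 14 of the same 38 regions were retained, 5 were lost, 11 had mixed libraries and 8 had no peak. In mRNA of the Mettl3 line, 10 were retained, 4 were lost, 3 were gained, 10 had mixed libraries and 11 had no peak. In mRNA of the Mettl14 line, 23 were retained, none was lost, 3 were gained, 2 had mixed libraries and 10 had no peak. These counts, and those of the 36 genes, were not made over protein-coding genes, so they are not a result about Slc genes.

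Slc1a3, a glutamate transporter, had the strongest of these last-10% regions, at chr15:8636006-8636328 on the minus strand and 97.2% of the way along the gene. Its folds in caRNA were 9.06 and 8.49 in the Mettl3 Control libraries, and the CKO libraries had no peak there. The gene itself was retained through other peaks, with best folds of 14.4 and 10.8 in CKO, against 9.95 and 11.3 in Control. Slc6a9, a glycine transporter, lost its region at chr4:117868036-117868557 on the plus strand, which had folds of 6.10 and 9.23 in the Control. An overlapping region was also lost in caRNA of the Mettl14 line (2.96 and 3.56 in Control) and was gained in mRNA of the Mettl3 CKO (4.49 and 4.77).

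The strongest lost gene was Slc25a10, the mitochondrial dicarboxylate carrier. Its plus-strand region at chr11:120498256-120499661, 72.6% of the way along the gene, had folds of 11.9 and 15.7 in the Control and no peak in the Mettl3 CKO. In caRNA of the Mettl14 line the same place had 11 and 17.4 in CKO, against 17.1 and 14.8 in Control. In mRNA it had 6.21 and 3.69 in the Mettl3 CKO, against 5.82 and 6.69 in the Control, and 10.5 and 13.6 in the Mettl14 CKO, against 7.35 and 9.90 in the Control. The absence was thus seen in caRNA of the Mettl3 CKO and in no other group.

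Sugar and monocarboxylate carriers stood among the lost genes of this comparison, where 11.6% of Slc genes and 5.06% of protein-coding genes were lost. In the group of sugar and monocarboxylate carriers, 6 of 18 genes marked in both Control libraries were lost and 2 of 13 marked in both CKO libraries were gained. Of the 6, Slc16a11 and Slc16a8 were not called on the gene's strand, and in caRNA of the Mettl14 line the group lost 1 of 18. Organic ion, bile acid and peptide carriers lost 2 of 8, families in no substance group 1 of 5 and metal ion carriers 4 of 22. Nucleoside and nucleotide sugar carriers lost 3 of 22, vitamin carriers 1 of 9 and inorganic ion and pH carriers 1 of 24. Mitochondrial carriers lost 1 of 26, amino acid carriers 1 of 28 and the remaining groups none. These group counts carry no test.

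Slc2a5, a fructose transporter, and Slc2a7, a hexose transporter, lie next to each other on the plus strand of chromosome 4, and both were lost. Slc2a5 had a region at chr4:150120577-150120761, early in the gene, with folds of 7.62 and 9.51 in the Mettl3 Control and none in the CKO. In mRNA the same region was gained in the Mettl14 CKO, with folds of 8.03 and 9.02 and no peak in the Control. Slc2a7 had a region at chr4:150168251-150168688, 97.6% of the way along, with folds of 8.84 and 7.84 in the Mettl3 Control and none in the CKO. It was retained in caRNA of the Mettl14 line (6.57 and 6.52 in CKO, against 7.05 and 7.19 in Control) and in mRNA of the Mettl14 line (9.81 and 10.3 in CKO, against 8.83 and 9.13 in Control).

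Slc2a8, an intracellular glucose transporter, was lost in caRNA of both lines. Its last-10% region at chr2:32973101-32973545 on the minus strand had folds of 5.89 and 6.59 in the Mettl3 Control and 4.58 and 4.95 in the Mettl14 Control, with no peak in either CKO. In mRNA the opposite was seen in the Mettl3 line, where the CKO had 5.47 and 4.41 and the Control no peak, and in the Mettl14 line it was retained, with 7.42 and 6.18 in CKO, against 5.08 and 3.81 in Control. Slc35e2, of the nucleotide sugar family, was also lost in caRNA of both lines, but in regions on opposite strands: chr4:155601457-155601609 on the minus strand in the Mettl3 line (5.05 and 4.10 in Control) and chr4:155601641-155602224 on the plus strand in the Mettl14 line (8.89 and 4.80 in Control). Slc35e2 was called in neither line when summits shared by several genes counted. These 2 genes were 10% of the 20 lost Slc genes of the Mettl3 line and 28.6% of the 7 of the Mettl14 line. Over protein-coding genes the shares lost in both lines were 11.3% and 11.8% of the lost genes. Over protein-coding genes, 0.662% of those marked in all 4 Control libraries were lost in both lines, and 2 of 152 Slc genes were.

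**Figure D5:**
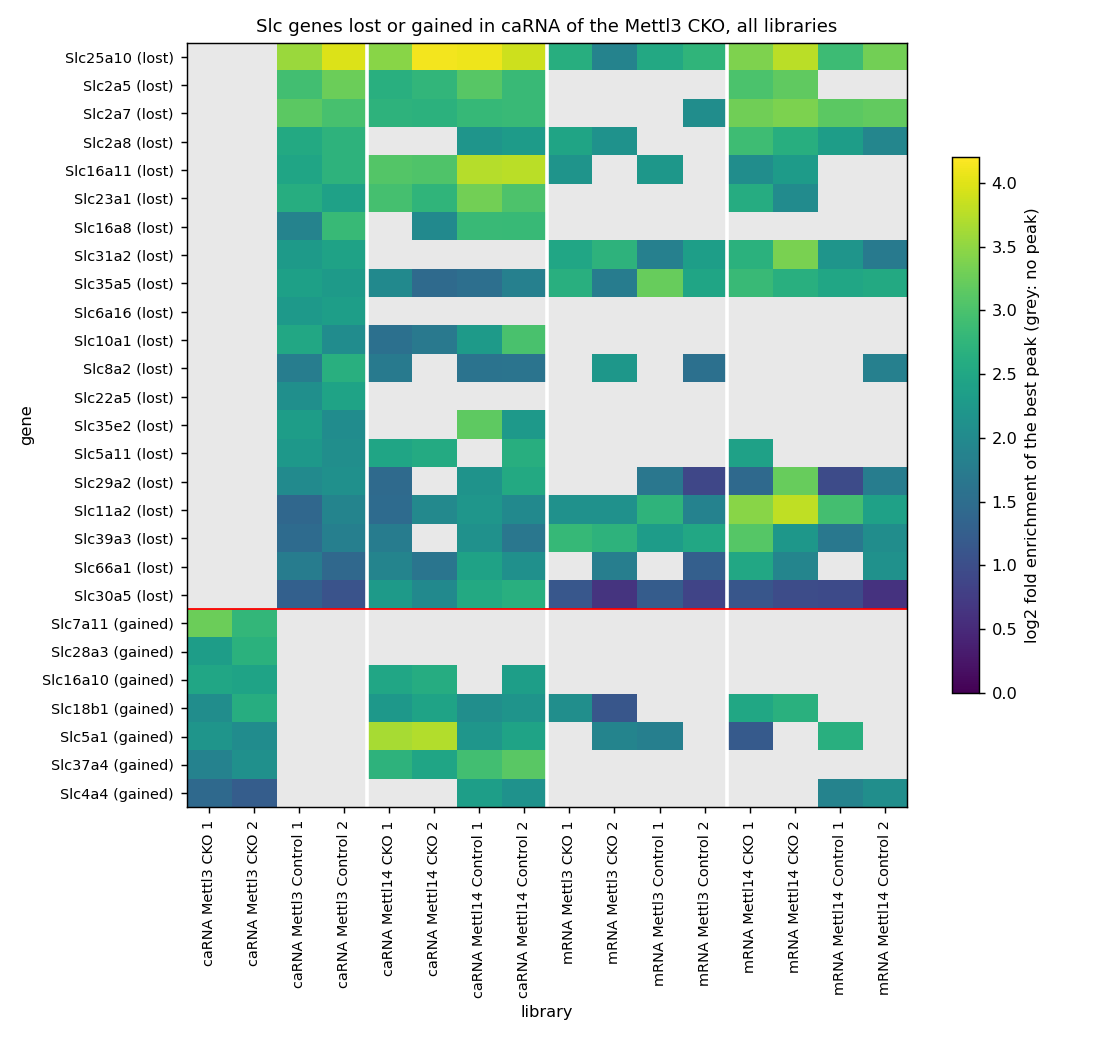
Log2 fold enrichment of the best peak, on either strand, of each Slc gene lost (above the red line) or gained (below it) in caRNA of the Mettl3 CKO, in all 16 libraries, with grey for no peak. The first 4 columns are the libraries that defined the calls, and most of the 20 lost genes have peaks in other groups, 10 of them being retained in caRNA of the Mettl14 line.

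The other leading lost genes were Slc16a11 and Slc16a8, of the monocarboxylate family, Slc23a1, a vitamin C transporter, and Slc31a2, of the copper transporter family. Slc16a11 had its peak on the strand opposite to the gene, at chr11:70215426-70215889, with folds of 5.53 and 6.55 in the Mettl3 Control. Reads there cannot be assigned to Slc16a11 RNA, and the gene was not called when peaks on its own strand alone were used. Slc16a11, Slc23a1 and Slc2a5, lost here, were all gained in mRNA of the Mettl14 CKO. Slc23a1 was not called in either comparison when summits shared by several genes counted, Slc16a8, Slc10a1 and Slc35e2 were not called on the gene's strand, and Slc11a2, Slc39a3 and Slc66a1 were not called with a −log10 q of at least 5.

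The gained genes of this comparison were few. Slc7a11, the cystine importer that feeds glutathione synthesis, had folds of 9.56 and 6.85 in caRNA of the Mettl3 CKO and no peak in any other library. The region lies at chr3:50415823-50416085 on the minus strand, 62.0% of the way along the gene. Slc28a3, a nucleoside importer, likewise had a peak only in these libraries (5.05 and 6.41), with 3 gained regions. The others were Slc16a10, an aromatic amino acid transporter (5.59 and 5.41), Slc18b1, a polyamine transporter (4.18 and 6.11), Slc5a1, a sodium-glucose transporter (4.56 and 4.13), Slc37a4, the glucose-6-phosphate transporter (3.64 and 4.30), and Slc4a4, a sodium-bicarbonate transporter (2.72 and 2.35). Slc37a4 and Slc4a4 were not called on the gene's strand alone.

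In caRNA of the Mettl14 CKO the Slc genes kept closer to the background. Of 379 Slc regions 57 were lost (15.0%), and 14.3% of protein-coding regions, and of 330 Slc regions 34 were gained (10.3%), and 9.22%. At the level of genes 7 of 174 were lost (4.02%), and 5.01% of protein-coding genes, and 5 of 161 were gained (3.11%), and 3.07%. Retained were 151 of the genes (86.8%), and 89.6% of protein-coding genes, and 265 of the regions (69.9%), and 74.6%. These counts rose, as the rule builds in, when a library was left out. The 57 lost regions became 105 without the second Control and 88 without the first CKO library. The 34 gained regions became 67 and 63 without the first and second CKO library. The 7 lost genes became 15 without the second Control, 16 without the first CKO and 14 without the second CKO library, and the 5 gained genes 10 and 9 without the second Control and the first CKO library.

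The calls of this comparison were also counted by position. In the last 10%, 22 of 107 Slc regions were lost (20.6%), and 15.5% of protein-coding regions, and 0 of 72 were gained, and 3.51% of protein-coding regions. Besides Slc2a8 and Slc35e2, the lost genes were Slc15a5 (5.59 and 4.35 in Control), of the peptide transporter family, Slc4a4 (5.11 and 4.41), Slc35c1, the GDP-fucose transporter (4.99 and 4.06), Slc22a23 (4.64 and 3.87), of the organic ion family, and Slc6a9 (2.96 and 3.68). Slc4a4 was thus lost in caRNA of the Mettl14 CKO and gained in caRNA of the Mettl3 CKO. The gained genes were Slc29a4, a monoamine transporter (5.70 and 6.89 in CKO), Slc7a8 (6.08 and 4.06), Slc35a3, a UDP-N-acetylglucosamine transporter (4.23 and 3.51), Slc25a53 (3.87 and 3.72) and Slc25a40 (3.38 and 3.40), both of the mitochondrial carrier family. On the gene's strand alone, Slc4a4, Slc15a5 and Slc29a4 were not called.

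In mRNA of the Mettl3 CKO, gained Slc genes outnumbered lost ones. Of 135 Slc genes marked in both Control libraries 8 were lost (5.93%), and 3.95% of protein-coding genes, and of 137 marked in both CKO libraries 15 were gained (10.9%), and 5.02%. For regions it was 21 of 191 lost (11%), and 9.41%, and 34 of 204 gained (16.7%), and 9.84%. Retained were 118 of the genes (87.4%), and 91.2% of protein-coding genes, and 150 of the regions (78.5%), and 81.6%. Of the 69 Slc regions in the last 10% that were marked in both CKO libraries 9 were gained (13%), and 4.70% of protein-coding regions there, and of 30 in the first 10% 8 were gained (26.7%), and 21.1%. Leaving a library out raised these counts by construction. The 8 lost genes became 14 without the second CKO library. The 21 lost regions became 33, 34 and 32 without the first Control, the second Control and the second CKO library. The 34 gained regions became 55 and 53 without the first and the second CKO library.

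Slc52a3, a riboflavin transporter, led the lost genes, with folds of 6.09 and 5.43 in the Control and no peak in the CKO. It had no caRNA peak in any library and was retained in mRNA of the Mettl14 line (6.83 and 12.5 in CKO, against 8.05 and 10.3 in Control). The other lost genes were Slc44a1, a choline transporter (6.05 and 5.46 in Control), Slc25a42, Slc25a48 and Slc25a33 of the mitochondrial carriers, Slc45a3, Slc4a8 and Slc29a2, a nucleoside transporter. Slc25a42 and Slc4a8 were gained in mRNA of the Mettl14 CKO, with 5.46 and 4.49 for Slc25a42 and 5.95 and 6.98 for Slc4a8. Slc29a2 was not called with a −log10 q of at least 5.

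Slc2a6, of the glucose transporter family, led the gained genes, with folds of 6.93 and 6.21 in the Mettl3 CKO and no peak in any other library. Slc2a10, of the same family, also had a peak in these libraries alone (5.79 and 4.42). Slc6a17 (3.37 and 9.08), Slc28a1 (5.08 and 5.70), Slc46a1, the folate transporter (5.79 and 4.33), and Slc8a1, a sodium-calcium exchanger (5.35 and 4.42), followed. Slc28a1, a nucleoside transporter, had a peak overlapping its gained region in all caRNA libraries, with folds of 8.18 and 8.02 in the Mettl3 CKO, against 9.45 and 9.51 in the Control, and 10.9 and 11.6 in the Mettl14 CKO, against 9.73 and 8.70 in the Control.

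Slc29a3, a lysosomal nucleoside transporter, and Slc18b1 were gained in mRNA of both lines. Slc29a3 had a region at 90.1% of its length, chr10:60716032-60716214 on the minus strand, with folds of 5.97 and 5.20 in the Mettl3 CKO and none in the Control. In the Mettl14 line it had 7.60 and 4.02 in the CKO and none in the Control, while the overlapping caRNA region was lost in the Mettl3 line (4.90 and 6.33 in Control). Slc18b1 gained an early region in the Mettl3 line, 6.04% along the gene (3.07 and 2.18), and a late one in the Mettl14 line, 96.0% along (5.65 and 6.33). These 2 genes were 13.3% of the 15 gained Slc genes of the Mettl3 line and 8% of the 25 of the Mettl14 line. Over protein-coding genes the shares gained in both lines were 10.1% and 3.72% of the gained genes. Of protein-coding genes marked in all 4 CKO libraries 0.599% were gained in both lines, and 2 of 119 Slc genes were. No Slc gene was lost in mRNA of both lines (0 of 105, and 0.180% of protein-coding genes), and none was gained in caRNA of both (0 of 126, and 0.250%).

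In mRNA of the Mettl14 CKO most calls were gains, for Slc genes and for protein-coding genes alike. Of 149 Slc genes 25 were gained (16.8%), and 13.5% of protein-coding genes, and of 120 Slc genes 2 were lost (1.67%), and 1.90%. For regions it was 56 of 239 gained (23.4%), and 23.8%, and 7 of 172 lost (4.07%), and 6.78%. Retained were 117 of the genes (97.5%), and 96.8% of protein-coding genes, and 161 of the regions (93.6%), and 91.0%. The CKO lists held 23380 and 22654 peaks in all, against 16537 and 17738 in the Control, and the part of list length in these gains was not tested beyond the stricter settings. With the 10000 strongest peaks of each list 3 genes (3.53%, and 6.88% of protein-coding genes) and 11 regions (10.3%, and 12.2%) were gained. In that setting 4 genes were lost (4.88%, and 5.34%). With all peaks but a library left out, where calls rise by construction, the 2 lost genes became 5 without the second Control library. The 7 lost regions became 12, 15 and 11 without the first Control, the second Control and the first CKO library.

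Slc22a23 led the gains, with folds of 10.3 and 7.08 in the Mettl14 CKO and no peak in the Control, at chr13:34182432-34183074 on the minus strand and 97.7% along the gene. The overlapping region was lost in caRNA of the Mettl3 CKO (7.42 and 5.18 in Control). Slc14a2, a urea transporter (7.86 and 7.64), Slc33a1, an acetyl-CoA transporter (6.22 and 8.68), Slc7a7, of the cationic amino acid exchangers (6.78 and 7.90), Slc38a6 (6.57 and 7.08), Slc40a1, the iron exporter (7.20 and 5.73), and Slc3a2 (2.54 and 2.70 on its own strand) were among the others. Slc33a1, Slc7a7 and Slc6a15 were not called when summits shared by several genes counted, and Slc16a11 was not called on the gene's strand. The lost genes were Slc4a4 (3.68 and 4.22 in Control) and Slc25a40 (2.31 and 4.61), of which Slc4a4 was not called on the gene's strand and Slc25a40 not with a −log10 q of at least 5.

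The retained genes held the strongest peaks, which the calling rule itself favours. Those named here were ranked by the best fold on either strand, which can come from separate sites in separate libraries. In caRNA, Slc38a6, a member of the amino acid carriers, had 24.2 and 21.1 in the Mettl3 CKO, against 18.7 and 22.7 in the Control. Slc25a46, a carrier-like protein of the outer mitochondrial membrane, had 16.1 and 18.2 in the Mettl3 CKO, against 26.7 and 24 in the Control, where the groups did not overlap. In caRNA of the Mettl14 line, Slc1a3 had 31.8 and 22.9 in CKO, against 13.2 and 19.2 in Control, Slc12a4, a potassium-chloride cotransporter, had 12.4 and 22.7, against 22.6 and 21.1, and Slc39a6, a zinc transporter, 23.5 and 19.4, against 16.3 and 19.3. In mRNA, Slc8b1, the mitochondrial sodium-calcium exchanger, had 17.6 and 30.9 in the Mettl3 CKO, against 24.4 and 7.12 in the Control. Slc5a6, a vitamin transporter, had 9.46 and 20.6, against 19.6 and 14.2, and Slc43a1, an amino acid transporter, had 23 and 22.3 in mRNA of the Mettl14 CKO, against 12.6 and 17.4 in the Control. Replicates of a group differed by several units in many of these genes, as in the Slc8b1 Control.

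Slc30a4, a zinc exporter, was among the strongest retained genes in mRNA of both lines, with 14.2 and 20.7 in the Mettl3 CKO, against 14.6 and 10.6 in the Control, and 11.9 and 12.8 in the Mettl14 CKO, against 13.5 and 15.7 in the Control. The groups overlapped in the Mettl3 line only. Slc2a3 had 15.5 and 17 in mRNA of the Mettl14 CKO, against 14.6 and 14.0 in the Control.

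Comparing RNA types within a group, caRNA marked Slc genes that mRNA did not more often than the reverse. A peak in both caRNA and no mRNA libraries was found for 26 of 144 Slc genes in the Mettl3 CKO (18.1%, and 18.4% of protein-coding genes), 36 of 172 in its Control (20.9%, and 18.1%), 24 of 161 in the Mettl14 CKO (14.9%, and 16.5%) and 57 of 174 in its Control (32.8%, and 27.3%). The reverse was found for 19 of 137 in the Mettl3 CKO (13.9%, and 7.98%), 7 of 135 in its Control (5.19%, and 5.91%), 14 of 149 in the Mettl14 CKO (9.40%, and 8.58%) and 9 of 120 in its Control (7.50%, and 4.43%).

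Over all groups, 3 of the 115 Slc genes with a peak in all 8 caRNA libraries had none in mRNA (2.61%, and 3.97% of protein-coding genes), and 0 of the 94 with a peak in all 8 mRNA libraries had none in caRNA (0.389% of protein-coding genes). The 3 were Slc38a9, a lysosomal arginine sensor, Slc5a2, the renal sodium-glucose transporter, and Slc35d2, of the nucleotide sugar family. Slc38a9 had 8.87 and 11.2 in caRNA of the Mettl3 CKO, against 6.24 and 7.36 in the Control, and 11.1 and 9.57 in the Mettl14 CKO, against 11.6 and 10.3 in the Control. CKO lay above Control in the Mettl3 line, and the groups overlapped in the Mettl14 line. Slc5a2 had 4.03 and 4.62 in the Mettl3 CKO, against 10.6 and 12.6 in the Control. With the 10000 strongest peaks 1 gene was found in caRNA alone (3.70%, and 1.96% of protein-coding genes) and 3 in mRNA alone (6.52%, and 3.85%). When shared summits counted 1 was found in caRNA alone (0.806%, and 3.47%). Without the second mRNA Mettl14 Control library 1 gene was found in mRNA alone.

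The 6 Slc genes with the most regions in any single comparison, counted on both strands, each reached that number in caRNA. Their excess of regions in caRNA over mRNA is therefore partly built in by this choice. Peaks per marked gene were also more numerous in caRNA than in mRNA for Slc genes (means 2.51 and 1.65). The same held for all protein-coding genes (means 3.27 and 2.14). Slc39a11, a zinc transporter gene, had 18 regions in caRNA of the Mettl3 line, 5 of them retained and 1 gained, and 7 in caRNA of the Mettl14 line, against 1 and 0 in mRNA of the 2 lines. Slc10a7 had 13 and 14 in caRNA of the Mettl3 and Mettl14 lines, against 2 and 2 in mRNA, and Slc25a13, a mitochondrial aspartate-glutamate carrier, 12 and 12, against 3 and 2. Slc20a2, a phosphate transporter, had 8 and 14, against 6 and 4, Slc38a1, a glutamine transporter, 12 and 12, against 8 and 9, and Slc2a3 11 and 8, against 5 and 3.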

How the data were processed

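The series holds 32 samples of m6A immunoprecipitation sequencing (MeRIP-seq), of which the 16 immunoprecipitation libraries have 1 deposited peak list each. Per the labels' protocols, RNA was enriched with the antibody of the EpiMark kit with spike-in RNA added, and libraries were made with a SMARTer Stranded Total RNA-Seq kit. Per the submitters' processing notes, mm10, CASAVA, Trimmomatic 0.38, HISAT2 2.1.0 and SAMtools 1.9 were named without roles. The peak caller is not given in the sources used here.

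The deposited fold of each peak is the authors' ratio of enrichment. The deposited −log10 values are the authors' p and q values on that scale, used only for stricter settings and to choose strands. The deposited summit offset gives the summit in bases from the peak start. The lists were made per library, without pooling. Depth is unknown, so no counting interval is given.

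The 43 spike-in peaks were set aside. Summits were placed in gene bodies of RefSeq GRCm38.p6 (49997 genes, 21900 protein-coding). Gene strand was known for 180 of the 232 marked Slc genes, and elsewhere the strand of the peak was used for position. Genes were named by one rule: in each comparison up to 8 lost and 8 gained genes with the highest mean fold and the 4 strongest retained, those called in both lines, the RNA type specific genes, the 6 with most regions and a fixed list of 22. Others named were chosen after their values were seen. Members, lists and rule were chosen with earlier results of these data known. The planned tests were 4 and those added after the data were seen 11, all exact permutations of 16 library labels within strata, with 1296 arrangements and a smallest p of 0.00154. Replicate numbers did not pair the libraries (correlations of deviations over 5002 genes from -0.00690 to 0.0173). Python 3.11.15, pandas 2.3.3, numpy 2.4.6 and matplotlib 3.10.9 were used, and scripts were tested on simulated data. Alternatives were the 10000 strongest peaks per list, a −log10 q of at least 5, summits shared by several genes, peaks on the gene's strand, summits within 100 nt, each replicate left out and a replicate block.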

Additional observations from a re-analysis of the deposited data

Results flagged for a closer look

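Both results below stand out because the CKO and Control libraries differed in opposite directions in caRNA and in mRNA, with a test of that difference itself. For the number of Slc genes with a peak, the CKO minus Control difference averaged -16.2 in caRNA and 17.8 in mRNA, and these differed by -34.0 genes (exact permutation test, p = 0.00309, adjusted over 11 tests p = 0.00424). For the percent of protein-coding peaks that lie in Slc genes, it averaged -0.128 points in caRNA and 0.0690 in mRNA, and these differed by -0.197 points (exact permutation test, p = 0.00154, adjusted p = 0.00283). The number of all protein-coding genes with a peak also differed in mRNA of the Mettl14 line, at 8590 and 8483 in CKO, against 6945 and 7251 in Control, and in caRNA of that line, at 9488 and 9572 in CKO, against 9928 and 9770 in Control, while its groups overlapped in the Mettl3 line. By group means this number was 10112 in caRNA of the Mettl3 CKO, against 10224 in its Control, and 9530 in caRNA of the Mettl14 CKO, against 9849. In mRNA it was 8611 in the Mettl3 CKO, against 8457, and 8536 in the Mettl14 CKO, against 7098. The directions of the gene count are thus not particular to Slc genes. For the 2 Slc measures, CKO was below Control in both caRNA comparisons and above it in both mRNA comparisons by group means. The Slc gene counts of CKO and Control met at 144 in mRNA of the Mettl3 line. Between the lines, the Mettl14 minus Mettl3 difference of the same contrasts was 19.5 genes (exact permutation p = 0.102, adjusted p = 0.124) and 0.0730 points (p = 0.310, exact permutation, adjusted p = 0.310), and neither passed. Peak lists of the Mettl14 CKO mRNA were longer than those of its Control, and the part of list length in the first result was not tested beyond the stricter settings given under processing. Protein-coding peaks were more numerous in caRNA of the Mettl3 CKO than in its Control, and their part in the second result was not tested.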

How the results depend on the processing

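The share of Slc peaks in the last 10%, its excess in CKO against Control and the opposite shifts in caRNA and mRNA were rerun under the alternatives. They kept their direction and passed in every run but 1. With the 10000 strongest peaks of each list, the difference in the number of Slc genes between the RNA types was -13.8 genes and did not pass (exact permutation p = 0.0602). The first-10% results and the difference in excess between caRNA and mRNA were not rerun. With the replicate number as a block (replicate block), caRNA and mRNA differed by -18.0 points in the last 10% (exact permutation p = 0.00781), CKO and Control by -6.68 points (p = 0.00781, exact permutation) and in the excess over other genes by -2.74 points (p = 0.0156, exact permutation), and no call changed. Leaving out each library in turn gave -18.4 to -17.6, -7.07 to -6.29 and -3.09 to -2.40 points for these 3 results.

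The counts of calls depended on how many peaks were used. With the 10000 strongest peaks, regions lost and gained were 44 and 18 in caRNA Mettl3, 12 and 10 in caRNA Mettl14 and 8 and 11 in mRNA Mettl3, and 11 were gained in mRNA Mettl14. In caRNA Mettl3 23 of 70 Slc genes were lost (32.9%, and 19.8% of protein-coding genes), but only 1 of the 20 genes lost with all peaks was still called. Genes lost were 4 in caRNA Mettl14 (5.56%, and 8.34%), 2 in mRNA Mettl3 (2.94%, and 7.32%) and 4 in mRNA Mettl14 (4.88%, and 5.34%). Genes gained were 6 in mRNA Mettl3 (8.33%, and 7.60%) and 3 in mRNA Mettl14 (3.53%, and 6.88%). In caRNA alone 1 gene was found (3.70%, and 1.96%) and in mRNA alone 3 (6.52%, and 3.85%). The number of Slc genes, CKO minus Control, was -4.38, and the share in Slc genes, caRNA minus mRNA, was -0.124 points and passed (exact permutation p = 0.0401). In mRNA Mettl14 the lost genes and regions were 1 (0.877%, and 1.88%) and 4 (2.47%, and 6.43%) with a −log10 q of at least 5. On the gene's strand they were 1 (0.855%, and 1.26%) and 3 (1.85%, and 5.00%). With summits within 100 nt 16 regions were lost there (9.64%, and 12.9%). With summits shared by several genes, 1 gene was found in caRNA alone (0.806%, and 3.47%). The cause of these changes was not tested, but the 10000 strongest peaks leave fewer peaks by construction.

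When a library is left out its partner alone decides, so calls rise by construction. This holds for all protein-coding genes too, and their shares without single libraries are not given here. Regions lost ran from 104 to 134 in caRNA Mettl3, 83 to 105 in caRNA Mettl14, 30 to 34 in mRNA Mettl3 and 7 to 15 in mRNA Mettl14, and regions gained from 67 to 101, 48 to 67 and 40 to 55 in the first 3. Genes lost ran from 9 to 16 in caRNA Mettl14, 10 to 14 in mRNA Mettl3 and 2 to 5 in mRNA Mettl14, and genes gained from 8 to 11 in caRNA Mettl3 and 5 to 10 in caRNA Mettl14. Genes in mRNA alone ran from 0 to 1. The number of Slc genes, CKO minus Control, ran from -0.250 to 1.75 and was 0 without the first caRNA Mettl3 Control library.

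Peak lists carry no read counts, so differences in depth between libraries could not be removed.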
